A study of Populus tremula x Populus alba with 7 samples.

Results

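PtrARF5a is a poplar auxin response factor (ARF), and its ChIP-seq peak list contains many peaks that no other transcription factor (TF) of the series shares. The peaks described here are the PtrARF5a-only peaks that stand in clusters. A peak was included when it lay on a chromosome, overlapped no peak of the other 5 lists by 1 bp or more, and had its summit, the base of highest signal, within 10000 bp of the summit of another such peak. Of the 5268 PtrARF5a peaks on chromosomes, 3931 overlapped no other list. In clusters stood 1462 of these (37.2%, exact 95% binomial interval 35.7 to 38.7%), and the other 2469 were isolated. The interval covers counting error only and treats peaks as independent, which peaks of a cluster are not. The 6 lists hold 9442 peaks in all.

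Each TF (PtrARF5a, PtrC2H2ZF1, PtrC2H2ZF2, PtrBLH, PtrNAC127 and PtrCORONA) was expressed in leaves of the hybrid Populus tremula × alba as a GFP fusion under the constitutive CaMV35S promoter, after infiltration with Agrobacterium. Leaf chromatin was cross-linked with 1% formaldehyde for 15 min and precipitated with a GFP antibody, and input chromatin without antibody served as the control for every TF. There is 1 library per TF, so no value below has a replicate error, and no p-value is given. Expression was transient, under a viral promoter and in leaves, whereas the screened TF library came from xylem-biased material, and no precipitation of GFP alone was analysed here.

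ARF proteins bind auxin response elements, short DNA motifs of the type TGTCTC, through a conserved N-terminal DNA-binding domain. Without auxin, Aux/IAA repressors hold the activating ARFs silent, and auxin triggers the breakdown of these repressors. In Arabidopsis, ARF5 (MONOPTEROS) is an activator known for its part in embryo patterning and the formation of vascular tissue, and ARF proteins can dimerise on paired elements. No genome of the build behind the lists was analysed here. Peak positions are therefore printed with neither genes nor motifs.

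The strongest cluster lay on chromosome 2, which is also the chromosome named in the PtrARF5a identifier Potri.002G024700. The introduced construct contains the PtrARF5a coding sequence, which was amplified with the 2 primers below. They are shown because they mark the ends of the poplar DNA in the construct. Capitals mark the added restriction site only. The base a after the site of the reverse primer also follows it in the paper's reverse primers for the other TFs, so it may be an added base.
PtrARF5a-Fwd-SpeI: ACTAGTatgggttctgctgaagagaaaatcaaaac
PtrARF5a-Rvs-AscI: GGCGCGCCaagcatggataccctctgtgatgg

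This cluster contained 4 peaks within a summit span of 3558 bp. The first, from 1555562 to 1555837, had a fold enrichment over input of 31.2, and the second, from 1556548 to 1557027, one of 14.1. The third, from 1557708 to 1558746, was the strongest peak of all 1462 by both measures, with an enrichment of 55.1-fold. Its −log10 q, the significance that the peak caller gave after correction for multiple testing, was 175.8. The fourth, from 1559109 to 1559702, had a fold enrichment of 41.0. Of these 4 peaks, 3 were the only clustered peaks with a fold enrichment of 20 or more. Outside this cluster the highest fold enrichment was 17.6, against 21.4 among the isolated peaks. The nearest peak of another list was more than 100 kb away from each of the 4, at gaps between 101302 and 104849 bp. The lists of PtrCORONA and PtrBLH also held clusters with strong peaks. The 6 clustered PtrCORONA-only peaks stood together on chromosome 3 with fold enrichments of 6.58 to 48.1, and 2 clustered PtrBLH-only peaks on chromosome 10 had 49.8 and 13.1. The identifiers given for these TFs in the cloning methods, Potri.003G050100 and Potri.010G197300, name the same chromosomes. For PtrCORONA, however, the paper's discussion gives another identifier, which names a different chromosome. The other 8 of the 10 clustered PtrBLH-only peaks stood on chromosome 13, with fold enrichments of 1.38 to 2.65. PtrC2H2ZF1, PtrC2H2ZF2 and PtrNAC127, with 2, 4 and 23 list-only peaks, had no clusters. Construct DNA in the precipitate and chromatin bound by the TF cannot be told apart, and the positions of the TF genes in this build were not used.

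The number of reads behind a peak could be read from the peak caller's own values. The fold enrichment is the number of reads at the summit plus 1, divided by the expected background plus 1, and the p-value is the Poisson probability of more reads than those observed. With both values given, a whole number of reads solved the equations for 5394 of the 5397 PtrARF5a peaks (99.9%, relative error of −log10 p under 2e-05), and for 1452 of the 1462 clustered peaks only 1 number did. The libraries were sequenced as paired ends and the mode in which the caller counted them is unknown here, so each unit called a read below may be a fragment, that is a pair of reads. In the chromosome 2 cluster the 4 summits carried 59, 27, 110 and 78 reads in order of position. The expected background was 0.925, 0.984, 1.01 and 0.925 reads. The exact 95% Poisson interval of the strongest summit was 90.4 to 133 reads, and that of the weakest 17.8 to 39.3 reads, so that these 2 differed beyond counting error.

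Most of the other clustered peaks rested on few reads. The median was 13 reads at the summit, with quartiles of 10 and 16, and 1341 of the 1452 solved peaks (92.4%) had at most 20. More than 30 reads were found at 15 peaks. The median expected background was 0.881 reads, and 1408 peaks (97.0%) had a background of at most 2.64 reads, which is the weight of 3 input reads after the caller scaled the input to the depth of the PtrARF5a library. With so few whole reads the fold enrichments fell on steps. The commonest value, 5.32, stood at 53 peaks and meant 9 reads over a background of 0.879. A single read more or less thus moves a typical fold enrichment to the next step, and differences of this size between 2 peaks of a cluster lie within counting error.

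**Figure D1:**
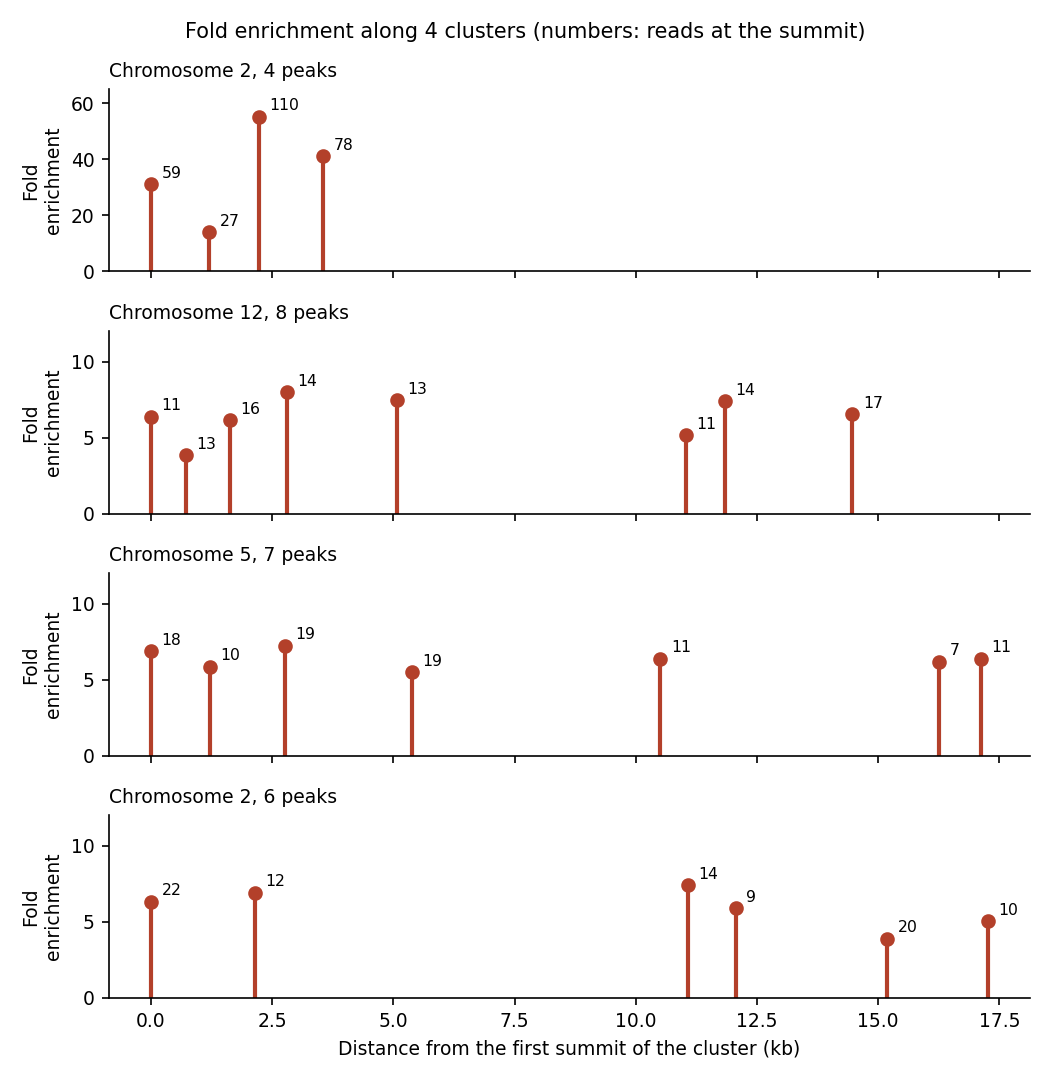
Fold enrichment over input (vertical axes, the top panel on a longer scale) of each peak of 4 clusters against the distance of its summit from the first summit of the cluster in kb. The numbers beside the points are reads at the summit. The 4 peaks of the strongest cluster reach 14.1 to 55.1, while no peak of the 3 clusters with the most peaks exceeds 7.98.

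The clusters were mostly pairs. Chaining neighbouring summits gave 633 clusters, of which 490 (77.4%) had 2 peaks, 107 had 3, 25 had 4 and 8 had 5. There was 1 cluster each of 6, 7 and 8 peaks. The 143 clusters of 3 or more peaks held 482 of the peaks (33.0%). Summit spans ran from 215 bp to 20621 bp, with a median of 4056 bp.

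The cluster with the most peaks lay on chromosome 12 from 13927280 to 13941964. Its 8 peaks had fold enrichments of 6.38, 3.85, 6.16, 7.98, 7.44, 5.17, 7.40 and 6.52 in order of position. They rested on 11 to 17 reads each, and the exact intervals of these reads overlapped. They formed a group of 4 within the first 3 kb, from 13927280 to 13930225, followed by a peak at 13932285 and by 3 more between 13938252 and 13941964. The nearest peak of another list was 149836 bp away or farther.

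The 7 peaks on chromosome 5, from 7447809 to 7465205, differed less in fold enrichment and more in reads than those on chromosome 12. Their fold enrichments lay between 5.50 and 7.25, a ratio of 1.32, and their reads between 7 and 19. The exact intervals of 7 and 19 reads, 2.81 to 14.4 and 11.4 to 29.7, overlapped. Here, too, no other TF had a peak nearby, the smallest gap being 269945 bp. The cluster of 6 peaks, on chromosome 2 from 1200141 to 1217565, had fold enrichments of 3.89 to 7.40 with 9 to 22 reads. It preceded the cluster of 4 strong peaks on the same chromosome. The lowest fold enrichment of the 6 belonged to the peak from 1215274 to 1215582, which had 20 reads over a background of 4.40 reads, while the next peak along, from 1217399 to 1217565, had 10 reads over 1.17 and a fold enrichment of 5.06. The values of these 2 peaks thus differed in background as well as in ChIP reads. The exact intervals of the 20 and 10 reads, 12.2 to 30.9 and 4.80 to 18.4, overlapped.

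The 11 clusters of 5 or more peaks held 61 peaks with a median fold enrichment of 6.32. Of these, 3 had a fold enrichment of at least 10, a level reached by 7.39% of all clustered peaks and 20.1% of all PtrARF5a peaks on chromosomes, and the highest was 12.5, in a cluster on chromosome 10 from 12190949 to 12210944. These clusters were on 9 chromosomes, with spans from 4372 bp to 20621 bp. The shortest of them, on chromosome 4 from 2413363 to 2418044, had fold enrichments of 4.12 to 7.45.

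Neighbouring summits in clusters were a median of 3145 bp apart (quartiles 1341 and 5878 bp, 829 neighbour pairs). Short distances were the most frequent. Up to 2 kb there were 285 pairs, a mean of 142.5 per kb of distance, against 53.8 per kb between 5 and 10 kb. Beyond the limit of the rule the counts were 38.6 per kb between 10 and 20 kb and 30.5 per kb between 20 and 30 kb. The counts fell by more than a factor of 2 within the first 5 kb, with 144 pairs in the first bin of 1 kb and 66 in the fifth. No random placement was drawn, so these counts are a description of the list.

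**Figure D2:**
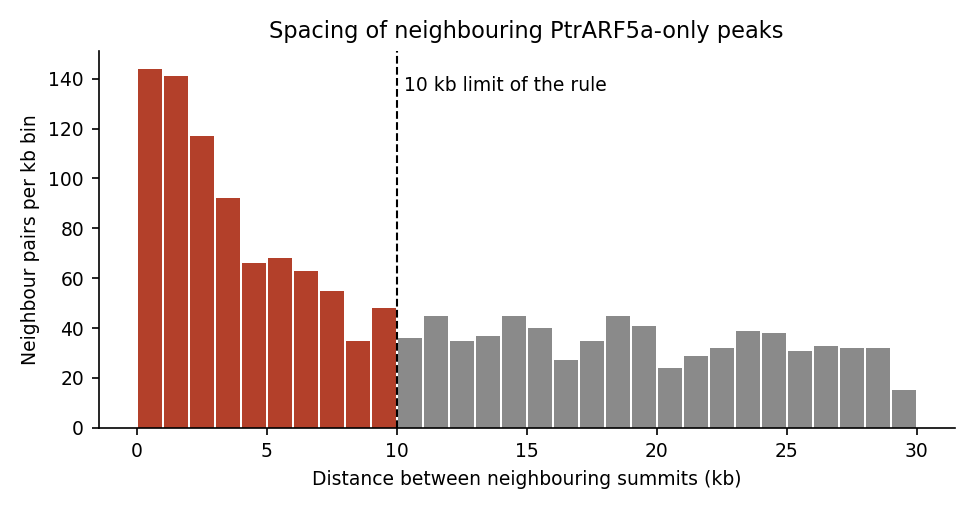
Number of neighbouring pairs of PtrARF5a-only peaks on a chromosome (vertical axis, pairs per bin of 1 kb) against the distance between their summits (horizontal axis, kb). Red bars are pairs within the 10 kb limit that defines the clusters and grey bars pairs beyond it. The first bar holds 144 pairs and the last red bar 48.

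The closest summits were 215 bp apart, on chromosome 1, in peaks from 47051781 to 47051947 and from 47052043 to 47052209. Both were 167 bp wide, the smallest width in the list, and each had 2 reads over a background of 0.0661 reads, an enrichment of 2.81-fold and a −log10 q of only 2.03. The interval for 2 reads is 0.242 to 7.22. The next closest were 253 bp apart on chromosome 8, from 7755353 to 7755525 with 11 reads and from 7755693 to 7755888 with 10 reads. On chromosome 3, summits 290 bp apart belonged to peaks from 15576247 to 15576454 (11 reads) and from 15576596 to 15576843 (13 reads). No peaks within a cluster touched, although 52 pairs were separated by less than 300 bp of sequence.

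At the edge of the rule, the widest spacing inside it was 9998 bp, on chromosome 5 between peaks at 20675193 (fold enrichment 7.12) and 20685364 (10.6). The next was 9994 bp, on chromosome 15 between 5566863 (3.30) and 5576762 (5.32). The narrowest spacings outside it were 10094 bp on chromosome 1, between 4840803 (6.94) and 4850898 (7.81), and 10110 bp on chromosome 18, between 1584113 (6.38) and 1594130 (9.04). The first of these peaks, at 4840803, was itself in a cluster through a nearer neighbour.

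Strong peaks were few. A fold enrichment of at least 10 was reached by 108 of the 1462 clustered peaks (7.39%, interval 6.10 to 8.85%), against 20.1% of all 5268 PtrARF5a peaks on chromosomes. These 108 peaks fell in 102 clusters, 98 of which had just 1 of them. With 7.39% of clustered peaks at this level, most neighbours of any peak fall below it, so these counts say little about strong peaks. In 3 clusters every peak reached 10, namely the chromosome 2 cluster of 4, a pair on chromosome 6 (9690175 to 9690386 and 9697615 to 9697899, fold enrichments 11.3 and 10.1) and a pair on chromosome 8 (3797693 to 3798005 and 3801547 to 3801751, 12.6 and 10.96). These last 2 clusters were singled out after their values were seen.

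After the chromosome 2 cluster came a peak on chromosome 8 (11701590 to 11701887) with a −log10 q of 43.7. It had 45 reads and a fold enrichment of 16.7, and its neighbour, 8379 bp away, had 14 reads and 4.12. Equal fold enrichments of 17.6, from 32 reads each, were found on chromosome 12 (12354816 to 12355147) and chromosome 10 (12423213 to 12423524). The neighbours of the peak on chromosome 12, 537 and 2615 bp away, had 8.51 and 5.32. Those of the peak on chromosome 10 had 5.50 and 6.92. On chromosome 3, the peak from 12033569 to 12033856 had 34 reads and a fold enrichment of 14.2, and on chromosome 17 the peak from 11723474 to 11723721 had 34 reads and 13.4. The peak on chromosome 1 from 47424319 to 47424645 followed with 28 reads and 15.4. On chromosome 8, the peak from 10691508 to 10691764 reached 17.0 with 21 reads over a background of 0.294 reads. Together these 7 peaks had 12 neighbours in their clusters, with fold enrichments of 4.12 to 9.58 and 9 to 20 reads. The 7 were chosen for their high −log10 q, so weaker neighbours follow from the choice.

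Across all 829 neighbour pairs, fold enrichments of neighbours showed almost no relation. The correlation of log2 fold enrichment between neighbours was r = 0.0153 (Spearman's rho = -0.0698), and without the chromosome 2 cluster r = -0.0795 (rho = -0.0814, 826 pairs). For log2 width r was 0.0749 (rho = 0.0461). The pairs share 1 library and its depth and are not independent. With a median of 13 reads at the summit, counting error would weaken any relation. These correlations therefore cannot tell whether neighbouring sites were alike in strength. Within a cluster, the strongest peak had a median of 1.42 times the fold enrichment of the weakest, and the ratio was above 2 in 103 clusters (16.3%).

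In strength and width, clustered peaks and isolated PtrARF5a-only peaks had nearly the same distributions. The median fold enrichment was 6.16 in clusters and 6.13 in isolated peaks, with a difference of 0.0272 (-0.196 to 0.342 from the intervals of both medians). The shares with a fold enrichment of at least 10 were 7.39% of the clustered and 7.01% of the isolated peaks (173 peaks). A −log10 q of at least 10 was reached by 383 clustered peaks (26.2%) and 600 isolated ones (24.3%), against 38.9% of all PtrARF5a peaks on chromosomes. Median widths were 221 bp in clusters (interval 215 to 226 bp) and 216 bp in isolated peaks (212 to 218 bp). Summits had a median of 13 reads in clusters and 12 in isolated peaks. The lowest background of the list, 0.0661 reads, was that of 17 clustered peaks (1.17%) and 99 isolated ones (4.06%).

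The 1337 PtrARF5a peaks on chromosomes that overlapped another list were stronger, with a median fold enrichment of 11.2, a median of 26 reads and 58.3% at a fold enrichment of at least 10. They were also wider, with a median of 315 bp. The rule leaves such peaks out, so this contrast describes the choice of peaks and was not tested.

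**Figure D3:**
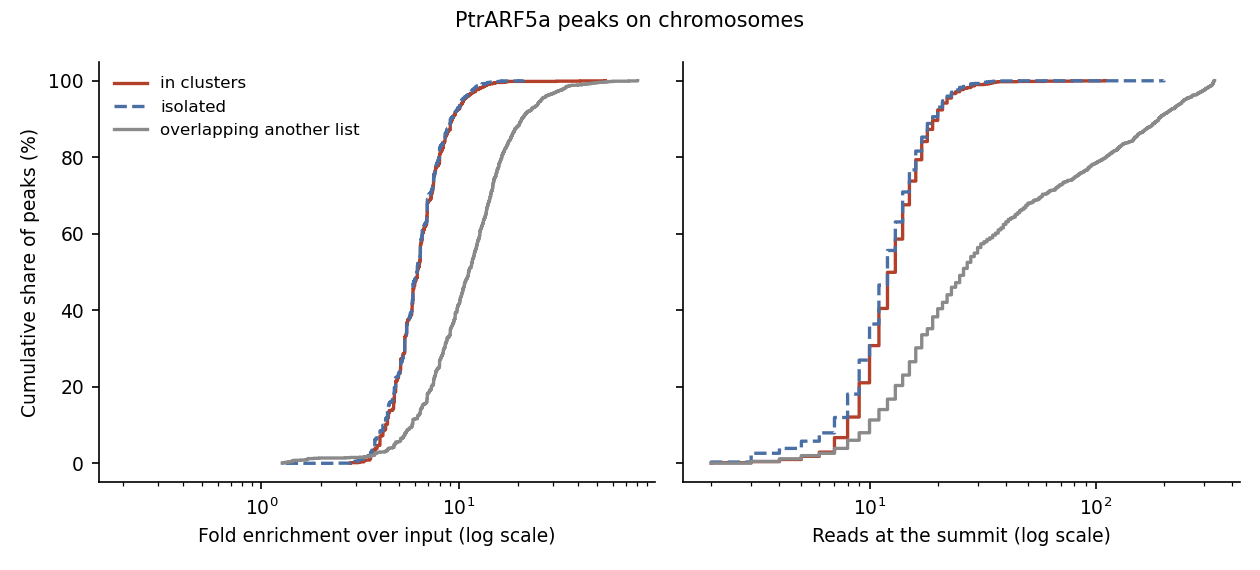
Cumulative share of PtrARF5a peaks on chromosomes (vertical axis, %) against fold enrichment over input (left, log scale, 1462 peaks in clusters, 2469 isolated, 1337 overlapping another list) and against reads at the summit (right, log scale, 1452, 2441 and 1321 solved peaks). Red and blue dashed lines run close together, with medians of 6.16 and 6.13, and the grey line of the overlapping peaks lies to the right.

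Every one of the 19 chromosomes carried clusters, but unevenly. Chromosome 2 had the most clustered peaks, 169 in 69 clusters, which were 47.5% of its PtrARF5a-only peaks (interval 42.2 to 52.8%). On chromosome 14 the share was highest, with 131 of 251 peaks (52.2%, 45.8 to 58.5%). The lowest share was on chromosome 17, with 24 of 95 (25.3%, 16.9 to 35.2%), and chromosome 19 likewise had 24 clustered peaks, of 84 (28.6%). On chromosome 1, 145 of 447 peaks (32.4%) were in clusters. Chromosomes with more PtrARF5a-only peaks per Mb had larger shares in clusters (r = 0.771, Spearman's rho = 0.735 over 19 chromosomes), which follows in part from the rule, since denser peaks have nearer neighbours. The strength of the peaks varied less, with median fold enrichments per chromosome between 5.31 and 6.52.

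**Figure D4:**
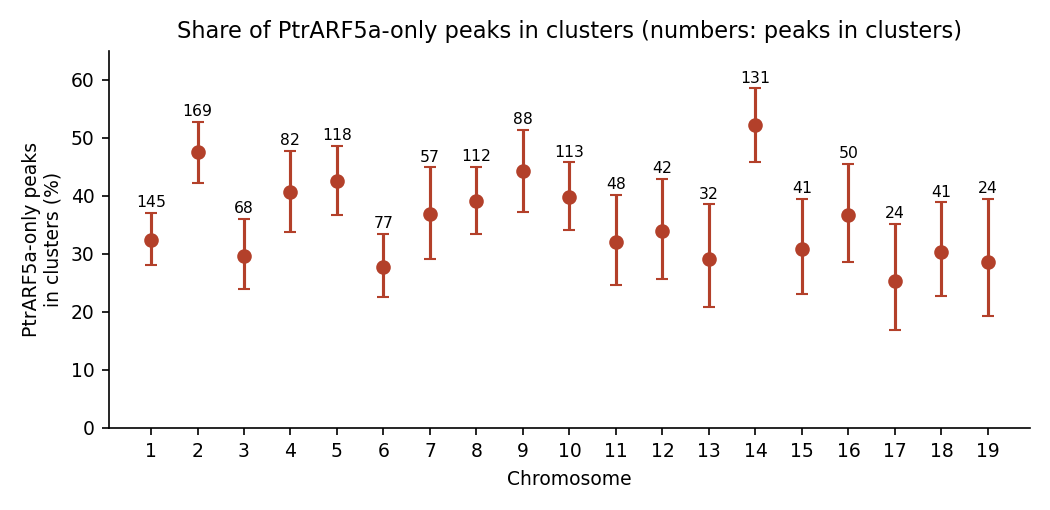
Share of the PtrARF5a-only peaks of each chromosome that stood in clusters (vertical axis, %), with exact 95% binomial intervals as bars and the number of clustered peaks above them. The intervals treat peaks as independent, which peaks of a cluster are not. Chromosome 14 (52.2%) and chromosome 2 (47.5%) have the highest shares and chromosome 17 (25.3%) the lowest.

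Clustered peaks were also spread unevenly along chromosomes. This, too, follows in part from the rule, since windows dense in PtrARF5a-only peaks have nearer neighbours. Of 402 windows of 1 Mb, 260 had a clustered peak, and the 43 windows with 10 or more held 571 of the peaks (39.1%). The fullest were on chromosome 14, with 22 peaks in 10 clusters between 1324217 and 1999747, and on chromosome 2, with 22 peaks in 8 clusters between 1000687 and 1972462, a window that includes the cluster of 6 and the cluster of 4 strong peaks. Counting all PtrARF5a peaks, these windows held 29 and 38. The next window of chromosome 14, up to 2992009, had 16 more. Another on chromosome 14, between 8086677 and 8762163, had 21 peaks in 10 clusters, with a median fold enrichment of 6.16. On chromosome 10, 20 peaks in 6 clusters stood between 12065735 and 12758949, beside 9 PtrARF5a peaks that overlapped other lists.

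Peaks of the other TFs were usually far from the clusters. This follows in part from the rule, which leaves out overlapping peaks. The other lists are also short, with 535 to 1109 peaks on chromosomes. The median gap to the nearest peak of another list was 67921 bp for clustered and 79509 bp for isolated peaks. Peaks of a cluster can share the same nearby peak, so they are not independent and intervals for clustered peaks understate the error here. Within 10 kb, 230 clustered peaks (15.7%, interval 13.9 to 17.7%) had such a peak, against 271 isolated ones (10.98%, 9.77 to 12.3%). Within 500 bp such a peak was found for 14 clustered (0.958%) and 24 isolated peaks (0.972%). By list, the counts of clustered peaks ranked with the length of the list but were not in proportion to it. PtrCORONA, with 1109 peaks on chromosomes, had one within 10 kb of 169 clustered (11.6%) and 204 isolated peaks (8.26%). PtrBLH, with 979, had one near 140 clustered (9.58%) and 188 isolated peaks (7.61%). The lists of PtrNAC127 (636 peaks), PtrC2H2ZF2 (567) and PtrC2H2ZF1 (535) came within this distance of 54, 46 and 40 clustered peaks (3.69%, 3.15% and 2.74%). For isolated peaks the counts were 86, 67 and 70 (3.48%, 2.71% and 2.84%), which are similar shares. A PtrARF5a peak shared with another list stood between the first and last summit of 28 clusters (4.42%) and within 10 kb of a summit in 97 (15.3%).

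The lists differed in smallest peak width, and the libraries in depth, taken here as the reads that the caller used after filtering. Raw reads were not compared. The smallest peak width was 167 bp for PtrARF5a and 284 to 297 bp for the other 5. The caller sets it from a fragment length that it estimates or is given, and the fragments themselves were not measured here. A share of the background values of each solved list fell on whole multiples of a step, 54.3% of the peaks for PtrARF5a and 62.9 to 85.2% for the other 4. In the caller's model this step is the number of ChIP reads per input read, and the other values lie between its multiples. The step was 0.879 for PtrARF5a, 0.781 for PtrCORONA, 0.527 for PtrBLH, 0.233 for PtrC2H2ZF1 and 0.210 for PtrC2H2ZF2, so that, with the same input for all, PtrARF5a was the deepest of these 5. Whole reads were not found for PtrNAC127 (0.587% of its peaks). The lowest −log10 q was 2.02 for PtrARF5a, 2.08 for PtrBLH and PtrCORONA, and 2.90 to 4.26 for the others. The part of depth and smallest peak width in the number of clusters was not tested.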

How the data were processed

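Peak lists of 6 TF-GFP ChIP-seq libraries were analysed, 1 per TF, and the input (the seventh of 7 samples) had no list of its own here. Reads had been cleaned by the authors (Trimmomatic) and aligned (Bowtie2) to the genome of P. tremula × alba clone 717-1B4. SAMtools was used to drop duplicates and alignments with MAPQ under 30. MACS2, for which the submitters' notes name version 2.1.0, then called peaks in every library against the input, and its options are not given in the sources used here. The deposited lists give a start, an end, a summit, a score (10 times the −log10 q), the fold enrichment (a ratio to the input), a −log10 p-value and a −log10 q-value. Fold enrichments of different lists were given as values, with no test between lists. Coordinates are counted from 1.

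Peaks overlapped when they shared 1 bp. Clusters were chains of summits within 10000 bp. Reads at a summit were solved from the fold enrichment and the p-value, and the code was tested on simulated lists. Intervals of shares and reads are exact, those of medians come from binomial order statistics, and all are at 95% and cover counting error only. Those of shares and medians treat peaks as independent, although peaks of a cluster are not. Named are the 10 clustered peaks with the largest −log10 q, the 5 with the largest fold enrichment, the clusters of the 3 strongest peaks, the 3 clusters with the most peaks, the 3 closest pairs and the pairs at the limit; other coordinates were named after their values were seen. Members and lists were chosen with earlier results of these data known. Alternatives were limits of 5000 and 20000 bp, a −log10 q of at least 5 or 10, an overlap of 50%, a margin of 500 bp, scaffolds included, and peaks within 300 bp merged. Work was done in Python 3.11.15 with scipy 1.17.1, pandas 2.3.3 and numpy 2.4.6, and plots with matplotlib 3.10.9.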

Additional observations from a re-analysis of the deposited data

How the results depend on the processing

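Of 63 repeats (7 results under 9 settings), 48 gave a similar value, that is within 1.5 times for a number of peaks or clusters and inside the interval of the first value otherwise. A −log10 q of at least 5 left 857 peaks in 380 clusters (29.8% of the PtrARF5a-only peaks), with a median fold enrichment of 6.80, a median width of 232 bp and 10.2% at a fold enrichment of at least 10. A −log10 q of at least 10 left 107 peaks in 50 clusters (10.9%), with 8.74, 261 bp and 28.0%. Fewer peaks entered under both, by construction. The share in clusters was 25.8% at a limit of 5000 bp, 51.0% at 20000 bp and 35.4% after merging peaks within 300 bp. Leaving out the chromosome 2 cluster, a setting chosen after seeing the data, kept all 7 results similar. It left 1458 of 1462 peaks and 632 of 633 clusters, so these 7 of the 48 similar values could hardly have moved. No paired analysis was possible because each TF has 1 library. Depth limits the weak peaks: a summit of 9 reads has an exact Poisson interval of 4.12 to 17.1 reads.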

Other observations

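The same rule found few clusters in the other lists. For PtrCORONA, 6 of its 50 list-only peaks on chromosomes stood in 1 cluster, and for PtrBLH 10 of 42 in 4 clusters, against 1462 of 3931 in 633 clusters for PtrARF5a. PtrC2H2ZF1 (2 list-only peaks), PtrC2H2ZF2 (4) and PtrNAC127 (23) had none. In the PtrBLH list, 8 of the 10 peaks lay on chromosome 13 and had fold enrichments between 1.38 and 2.65 with a −log10 q of up to 28.4. The other 2, on chromosome 10, had 49.8 and 13.1, and the 6 PtrCORONA peaks, on chromosome 3, 6.58 to 48.1. Each list has its own depth, so these fold enrichments are not directly comparable. On unplaced scaffolds, which were left out of the clusters, 2 PtrARF5a-only peaks stood within 10000 bp of each other.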
